A study of Mus musculus with 7 samples.

Results

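The 37 nuclear genes described here encode the proteins that copy, transcribe and translate mitochondrial DNA, and 16 of them are mitochondrial aminoacyl-tRNA synthetases. They were chosen by name, with earlier results of these data known. Each was read through the probe set that carried its symbol alone and had the highest mean over all arrays. All 37 were measured, out of 19938 genes with such a probe set. RNA came from the extensor digitorum longus, a fast-twitch hindlimb muscle, of 4 wild type mice and 3 AMPKα1α2 double knockout mice. The knockout targets the genes of both catalytic subunit forms of AMPK, the AMP-activated kinase that senses a shortage of energy in the cell. All mice shared a mixed C57/Bl6 and SV129 background, and 1 single-colour array was run per mouse. The labels used here state neither age nor sex, nor whether the mice had exercised, nor in which tissues the genes were deleted.

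Mitochondria keep a small genome of their own that encodes core subunits of the respiratory chain together with the ribosomal and transfer RNAs needed to make them. Everything else in this system is imported: the polymerases, the RNA-binding proteins, the enzymes that charge each tRNA with its amino acid and the factors that drive the mitochondrial ribosome. In skeletal muscle AMPK is known for promoting the transcription of mitochondrial genes, in part through PGC-1α and the nuclear factors that act on these promoters.

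Most of the 37 transcripts lay slightly below wild type in knockout muscle, and 0 passed the test. The mean knockout level was below the mean wild type level for 29 genes (78.4%, against 53.3% of all genes) and above it for 8. The median difference, knockout minus wild type, was -0.09 on the log2 scale, against -0.005 over all genes, and the most negative one, Gfm1, corresponded to a level 18.2% lower. In a limma fit of all 7 arrays, with p-values adjusted by Benjamini-Hochberg over every probe set tested, 0 of the 37 had an adjusted p under 0.05 (background 0.0251% of all genes) and 0 under 0.10 (background 0.361%). The smallest adjusted p of a member was 0.235 (Lrpprc). At an unadjusted p under 0.05 there were 11 members on the lower side (29.7%, against a background of 6.69%) and 0 on the higher side (background 3.93%). For 9 members the highest knockout array was lower than the lowest wild type array (24.3%, against a background of 5.33%), and for 1 the reverse held (2.7%, against 3.29%). The unadjusted count of 11 was 5 without knockout replicate 2, 6 without wild type replicate 2, 7 without knockout replicate 3 or wild type replicate 3, 8 without wild type replicate 1 or 4, and 12 without knockout replicate 1.

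**Figure D1:**
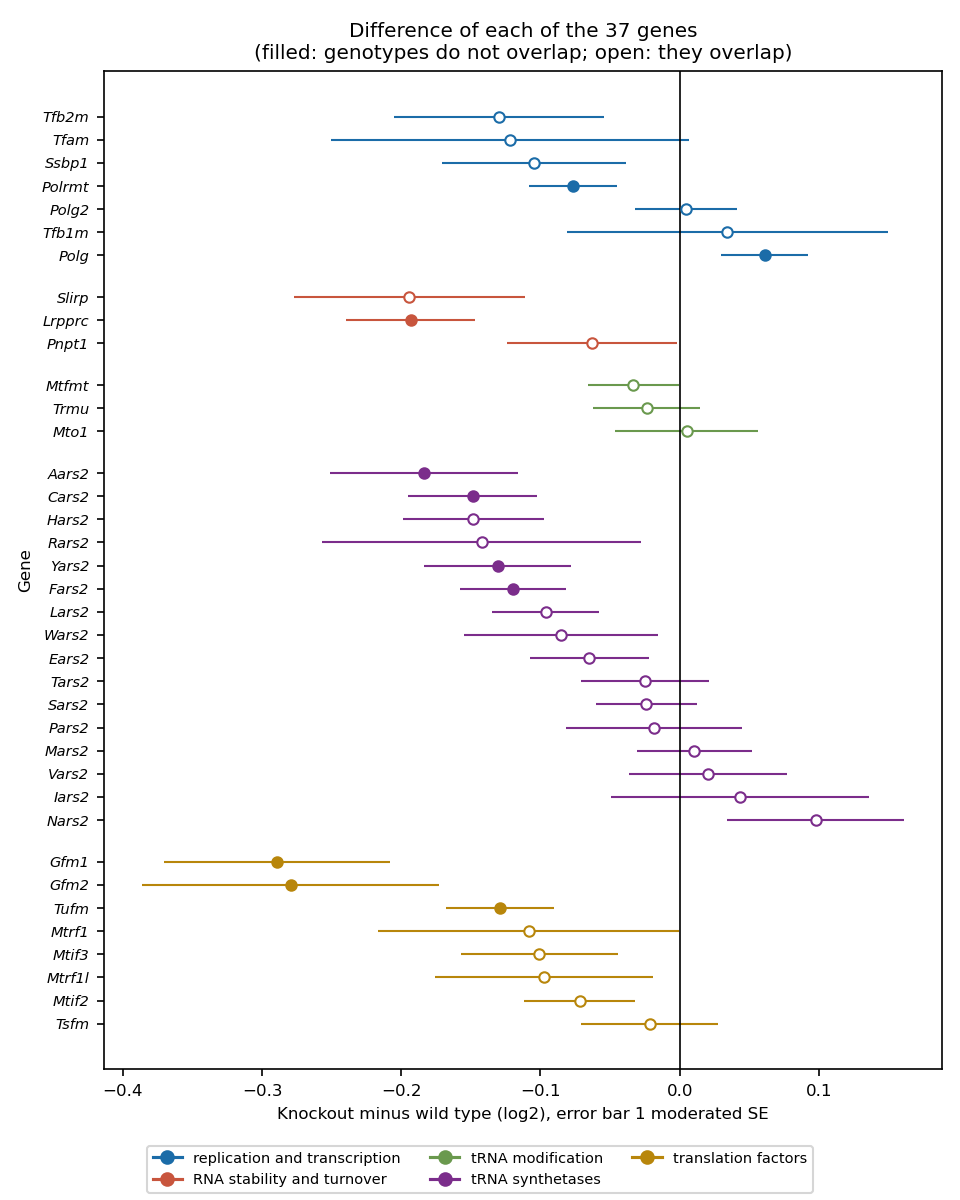
Knockout minus wild type difference (log2, horizontal axis) of the 37 genes, grouped and coloured by role, with error bars of 1 moderated standard error from limma over 4 wild type and 3 knockout arrays. Points lie left of 0 for 29 genes, and the 10 filled points are genes whose genotypes do not overlap, of which Polg alone lies to the right.

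The differences were not spread evenly over the knockout mice. Knockout replicates 1, 2 and 3 were below the wild type mean in 25, 28 and 29 of the 37 genes (67.6%, 75.7% and 78.4%, against 58.6%, 59.8% and 44% of all genes), and the single wild type arrays in 15 to 23. Each wild type array is part of that mean and no knockout array is, so their counts and medians are not on equal terms. Knockout replicate 1, at 25, was close to wild type replicate 4, at 23. Measured against the wild type mean of each gene, the median over the 37 genes was -0.02 in knockout replicate 1, -0.04 in replicate 2 and -0.15 in replicate 3, while the wild type arrays lay between -0.02 and 0.01. Knockout replicate 3 alone held the lowest value of all 7 arrays in 24 of the 37 genes (64.9%), against 17.6% of all genes tested. The share was 61.5% among mitochondrial ribosomal protein genes and 47.1% among complex I subunit genes. Over all genes, knockout replicate 3 alone also held the highest value in 28.6%, the largest such share of any array. It was also the array with the lowest weight in limma's array weighting, 0.294 against 0.765 to 1.99 in the others. Without it the median difference was -0.04, with 28 of 37 genes below wild type, and of the 29 genes that lay below with all arrays 23 moved towards or past 0 and 6 moved further down. Without it, 7 of the 11 genes lower at an unadjusted p under 0.05 were still so. The 9 non-overlapping genes cannot come to overlap when an array is left out, so they give no check here. What sets this array apart was not tested.

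**Figure D2:**
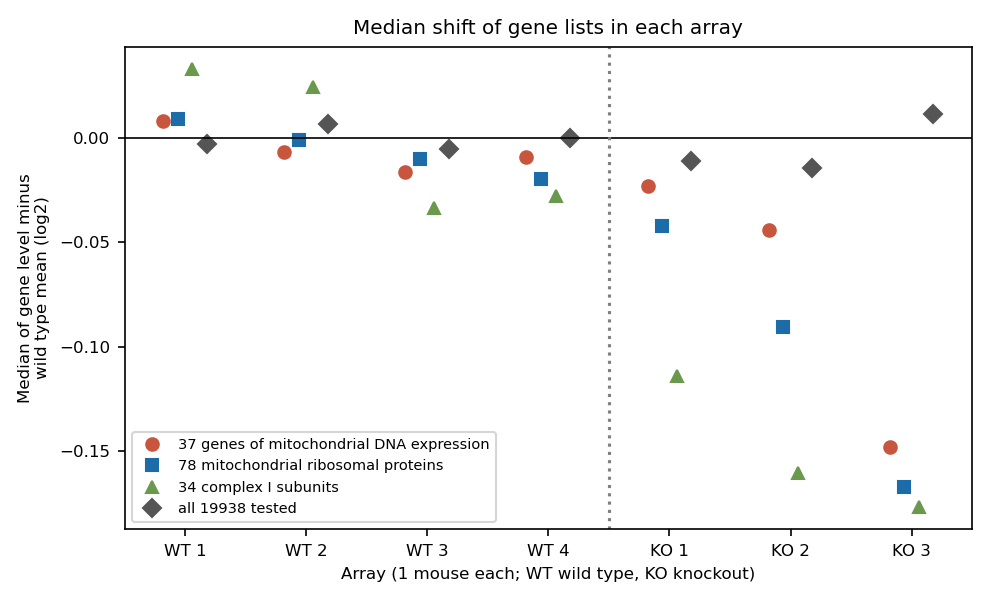
Median over each gene list of the level in an array minus the wild type mean of the same gene (log2, vertical axis), for each of the 7 arrays (horizontal axis). The 37 genes lie at -0.02, -0.04 and -0.15 in knockout replicates 1, 2 and 3, complex I subunits are already at -0.11 in replicate 1, and the median of all genes stays between -0.01 and 0.01 in every array.

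**Figure D3:**
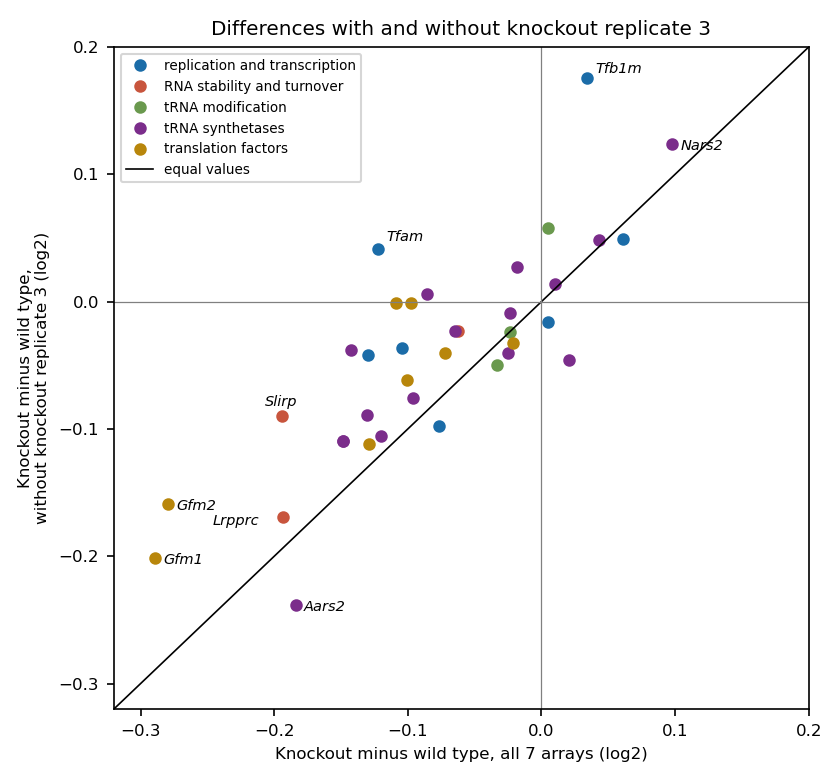
Difference of each of the 37 genes without knockout replicate 3 (vertical axis, log2) against the difference with all 7 arrays (horizontal axis, log2), coloured by role, with a line of equal values. Most genes on the left lie above the line, Tfam crosses 0, Tfb1m moves from 0.03 to 0.18, and Aars2 lies below the line.

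Replication and transcription proteins went both ways, with 4 of 7 below wild type and a median difference of -0.08 (-0.02 without knockout replicate 3). Polrmt is the RNA polymerase of mitochondria. In replicate order, its wild type arrays read 9.487, 9.453, 9.468 and 9.428, and its knockout arrays 9.369, 9.353 and 9.425. All knockout arrays were lower, but replicate 3 by a margin of only 0.003. The difference was -0.08 ± 0.03 (SE), with a limma adjusted p of 0.462, and after a further quantile normalization it was -0.05 and the genotypes overlapped. Polg, the catalytic subunit of the DNA polymerase that copies mitochondrial DNA, was the only member whose knockout arrays all lay above wild type, at 8.792, 8.846 and 8.855 against 8.729, 8.779, 8.785 and 8.785. Its difference was 0.06 ± 0.03 (SE, limma adjusted p = 0.572), and after median centring or a further quantile normalization its genotypes overlapped. Its accessory subunit Polg2, which had the lowest mean level of the 37 and was the only one removed by a filter at the lower quartile of probe set means, differed by 0.005 ± 0.037, a sign that turned under both of those scalings.

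Tfam packages mitochondrial DNA and starts its transcription. It read 8.87, 8.75, 8.98 and 8.87 in wild type, against 8.95, 8.87 and 8.42 in knockout arrays. Knockout replicates 1 and 2 lay within the wild type range and replicate 3 far below it. The difference was -0.12 ± 0.13 (SE), with a 95% interval from -0.43 to 0.18, and it was 0.04 without knockout replicate 3. Tfb2m, the factor that opens the promoter for the polymerase and the member with the highest mean level, read 10.71, 10.60, 10.63 and 10.69 against 10.67, 10.56 and 10.35, a difference of -0.13 ± 0.08 (-0.04 without replicate 3). Its relative Tfb1m, which methylates the ribosomal RNA of the small subunit, read 9.59, 9.41, 9.60 and 9.61 against 9.78, 9.68 and 9.30. Knockout replicates 1 and 2 were above every wild type array and replicate 3 below every one, so the difference of 0.03 ± 0.12 became 0.18 without replicate 3. Ssbp1, which coats single-stranded mitochondrial DNA, differed by -0.10 ± 0.07 (-0.04 without replicate 3). A second probe set of Ssbp1 gave -0.07 ± 0.05. There knockout replicate 2 was the lowest array and replicate 3 lay within the wild type range. A second probe set of Tfb2m gave -0.13 ± 0.08.

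RNA-binding and decay proteins were all below wild type, with a median difference of -0.19 (-0.09 without knockout replicate 3). Lrpprc stabilises mitochondrial messenger RNAs and had the smallest p of the 37 genes. It read 10.39, 10.27, 10.39 and 10.32 in wild type, with a mean of 10.34 ± 0.06 (SD, n = 4), and 10.22, 10.13 and 10.10 in knockout, with a mean of 10.15 ± 0.06 (SD, n = 3). Every knockout array lay below every wild type array. The difference of -0.19 ± 0.05 (SE), or 1.14-fold, did not pass (limma adjusted p = 0.235), and it ran from -0.23 to -0.17 when any 1 array was left out. Slirp, its binding partner, read 9.99, 10.02, 10.00 and 9.91 against 9.93, 9.85 and 9.58, so the genotypes overlapped through knockout replicate 1. Its difference was -0.19 ± 0.08 (-0.09 without replicate 3). Pnpt1, an exoribonuclease of mitochondrial RNA, differed by -0.06 ± 0.06 (-0.02 without replicate 3).

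The 3 genes of tRNA modification had a median difference of -0.02, with all arrays and without knockout replicate 3, and none without overlap in all arrays. Mtfmt, which formylates the initiator methionyl-tRNA, read 8.22 in wild type replicate 1 and 8.16 in replicates 2 to 4, against 8.14, 8.11 and 8.17 in knockout arrays, a difference of -0.03 ± 0.03. Trmu adds sulphur to the wobble uridine of a few tRNAs. It read 7.554 in all 3 knockout arrays and in wild type replicates 1 and 3, 7.665 in wild type replicate 2 and 7.538 in replicate 4, a difference of -0.02 ± 0.04. Values identical in every deposited digit in at least 2 arrays occurred in 18 of the 37 genes (48.6%) and in 59.4% of all genes tested. In Vars2, for example, all 4 wild type arrays read 8.593. Mto1, which modifies the same uridine, differed by 0.005 ± 0.051, with a sign that turned under median centring.

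Of the 16 synthetases, 12 lay below wild type (75%, background 53.3%), 6 of them at an unadjusted p under 0.05 (37.5%, background 6.69%) and 4 without overlap (25%, background 5.33%), and their median difference was -0.08 (-0.04 without knockout replicate 3). Aars2 charges alanine. It read 8.368, 8.541, 8.332 and 8.366 in wild type, against 8.126, 8.201 and 8.326 in knockout arrays. All knockout arrays were lower, replicate 3 by a margin of only 0.005. The difference was -0.18 ± 0.07 (SE, limma adjusted p = 0.416), and -0.24 without knockout replicate 3, and the genotypes overlapped after a further quantile normalization.

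Cars2, for cysteine, read 8.94, 8.85, 8.84 and 8.87 against 8.80, 8.73 and 8.65, a difference of -0.15 ± 0.05 (limma adjusted p = 0.344). Fars2, for phenylalanine, read 8.85, 8.91, 8.94 and 8.85 against 8.82, 8.74 and 8.74, a difference of -0.12 ± 0.04 (limma adjusted p = 0.354). Yars2, for tyrosine, read 8.788, 8.940, 8.804 and 8.865 against 8.782, 8.739 and 8.634, a difference of -0.13 ± 0.05 (limma adjusted p = 0.454). In these 3 genes every knockout array was below every wild type array, in Yars2 by a margin of 0.007, and knockout replicate 3 was the lowest. The remaining synthetases with an unadjusted p under 0.05 were Hars2, for histidine, at -0.15 ± 0.05 and Lars2, for leucine, at -0.10 ± 0.04, and in both knockout replicate 1 reached into the wild type range.

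The other synthetases showed wider spread or smaller differences. Rars2, for arginine, differed by -0.14 ± 0.11 (-0.04 without knockout replicate 3), and already varied between 8.49 and 8.78 in wild type. Wars2, for tryptophan, differed by -0.09 ± 0.07, which came from knockout replicate 3 at 8.48, since knockout replicates 1 and 2 read 8.74 and 8.77 and wild type 8.74 to 8.77. Ears2, for glutamate, differed by -0.07 ± 0.04 (-0.02 without knockout replicate 3), and Tars2, Sars2 and Pars2, for threonine, serine and proline, by -0.025, -0.024 and -0.018. The synthetases above wild type were Nars2, for asparagine, at 0.10 ± 0.06, Iars2, for isoleucine, at 0.04 ± 0.09, Vars2, for valine, at 0.02 ± 0.06, and Mars2, for methionine, at 0.01 ± 0.04. Nars2 kept its sign in every alternative fit run, while Iars2, Vars2 and Mars2 turned in at least 1.

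All 8 translation factors lay below wild type, with a median difference of -0.10 (-0.05 without knockout replicate 3). Gfm1, the elongation factor G that moves the ribosome along the messenger, showed the most negative difference of the 37 genes. It read 10.29, 10.38, 10.19 and 10.23 in wild type, with a mean of 10.27 ± 0.08 (SD, n = 4), and 10.12, 10.02 and 9.81 in knockout, with a mean of 9.98 ± 0.16 (SD, n = 3). All knockout arrays were lower, and replicate 3 the lowest. The difference was -0.29 ± 0.08 (SE), or 1.22-fold, with a limma adjusted p of 0.297, and -0.20 without replicate 3.

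Gfm2, a relative of Gfm1 that works in ribosome recycling and not in elongation, read 9.963, 9.769, 9.771 and 9.803 against 9.758, 9.577 and 9.306. The genotypes did not overlap, but knockout replicate 1 was only 0.011 below the lowest wild type array, and after median centring or a further quantile normalization they overlapped. Its difference was -0.28 ± 0.11 (limma adjusted p = 0.435), and -0.16 without knockout replicate 3. Tufm, the elongation factor Tu that delivers charged tRNAs to the ribosome, read 10.46, 10.52, 10.43 and 10.46 against 10.31, 10.40 and 10.30. Here knockout replicates 1 and 3 were alike, and the spread within each genotype was small. The difference was -0.13 ± 0.04 (limma adjusted p = 0.331), and a second probe set of Tufm gave -0.14 ± 0.03. Its exchange factor Tsfm differed by -0.02 ± 0.05, a sign that turned without wild type replicate 2. The initiation factors Mtif2 and Mtif3 differed by -0.07 ± 0.04 and -0.10 ± 0.06 (-0.04 and -0.06 without knockout replicate 3). The release factors Mtrf1 and Mtrf1l differed by -0.11 ± 0.11 and -0.10 ± 0.08, and both were within 0.002 of 0 without knockout replicate 3.

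**Figure D4:**
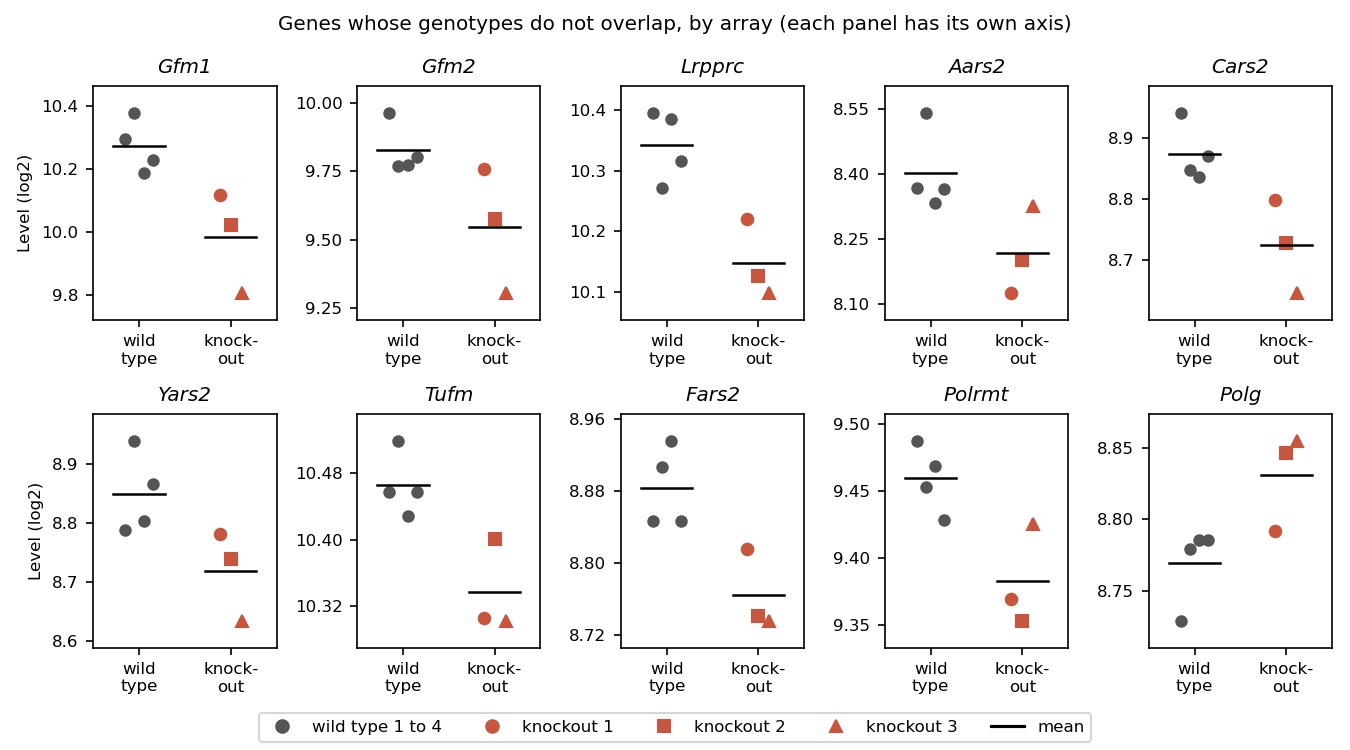
Level (log2, vertical axis, a separate range in each panel) of the 10 genes whose genotypes do not overlap, with grey points for the 4 wild type arrays, red symbols for the 3 knockout arrays and black lines for the means. The 9 lower genes are ordered by difference, from Gfm1 at -0.29 to Polrmt at -0.08, Polg is last at 0.06, and knockout replicate 3 is the lowest array in most of the panels but not in Aars2, Polrmt or Polg.

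The promoters of these genes are shown to describe which letters the members share. Promoters of such genes are known for binding NRF-1 and factors of the ETS family such as GABPA. Whether these factors have a part in the differences was not tested. RefSeq promoter sequences (GRCm38.p6, 250 bases before to 50 after the start) matched 34 of the 37 genes by symbol, the exceptions being Hars2, Pars2 and Mtif3. All motifs were searched on both strands. The ETS letters CCGGAAG were in 14 of 34 promoters (41.2%), against 13.6% of 15614 tested genes with a promoter and 36.8% of 68 mitochondrial ribosomal protein genes. The NRF-1 motif, GCGC then any base then TGCGC, was in 4 (11.8%, against 7.85%), its form with A as the free base in 0 (against 1.61%), and the ERR letters TCAAGGTCA in 1, that of Mtrf1l (2.94%, against 0.346%). Of the replication and transcription genes 5 of 7 held the ETS letters, and of the synthetases 4 of 14. The ETS letters were in 4 of the 9 genes whose knockout arrays all lay lower (44.4%), and in Polg, which lay higher. A match is a description of letters and not of binding. Member promoters were also richer in G and C, with a median of 58.3% against 52.7% over the promoter table. Either motif was in 5 of the 9 lower genes (55.6%) and in 16 of the 34 members (47.1%), against 19.7% of tested genes. Among the 68 mitochondrial ribosomal protein genes it was in 50%. Neither motif was in Lrpprc, Aars2, Fars2 or Yars2. The 4 promoters below belong to genes with non-overlapping genotypes and at least 1 match, with ETS and NRF-1 matches on either strand in capitals. Cars2 and Polg also met both conditions, with an ETS match 18 and 38 bases upstream, and are not printed. In Gfm1 and Tufm an ETS match lies next to the start, in Gfm2 an NRF-1 match lies 43 bases upstream, and in Polrmt 2 overlapping NRF-1 matches span the start, and an ETS match lies upstream of them.
Gfm1, chr3:67429865-67430164, plus strand: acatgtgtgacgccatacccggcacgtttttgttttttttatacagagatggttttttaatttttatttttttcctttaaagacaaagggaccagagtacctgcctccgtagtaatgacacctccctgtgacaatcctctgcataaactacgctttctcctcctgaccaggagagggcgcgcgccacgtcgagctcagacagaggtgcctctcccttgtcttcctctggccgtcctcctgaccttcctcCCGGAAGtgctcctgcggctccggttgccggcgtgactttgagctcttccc
Tufm, chr7:126487105-126487404, plus strand: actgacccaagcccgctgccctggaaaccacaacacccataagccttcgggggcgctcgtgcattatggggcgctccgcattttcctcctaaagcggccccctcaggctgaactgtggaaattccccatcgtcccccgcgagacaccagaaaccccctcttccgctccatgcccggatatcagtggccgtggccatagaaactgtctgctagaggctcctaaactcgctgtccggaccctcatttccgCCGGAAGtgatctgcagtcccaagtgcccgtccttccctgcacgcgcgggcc
Gfm2, chr13:97137687-97137986, plus strand: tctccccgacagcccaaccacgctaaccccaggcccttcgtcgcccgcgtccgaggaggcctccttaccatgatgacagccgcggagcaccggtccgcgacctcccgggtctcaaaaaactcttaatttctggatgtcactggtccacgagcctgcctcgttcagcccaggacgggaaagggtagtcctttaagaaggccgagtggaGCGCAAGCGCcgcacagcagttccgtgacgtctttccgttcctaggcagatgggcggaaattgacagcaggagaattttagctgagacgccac
Polrmt, chr10:79746532-79746831, minus strand: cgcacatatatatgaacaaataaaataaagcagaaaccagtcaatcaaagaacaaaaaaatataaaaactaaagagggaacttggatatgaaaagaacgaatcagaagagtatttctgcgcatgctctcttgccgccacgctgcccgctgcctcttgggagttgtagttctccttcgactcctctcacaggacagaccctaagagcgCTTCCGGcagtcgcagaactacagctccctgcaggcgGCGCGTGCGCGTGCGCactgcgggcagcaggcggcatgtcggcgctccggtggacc

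The rest of the same pathway was read from lists of further genes of mitochondrial DNA maintenance, RNA processing, RNA modification and translation. Of 79 such genes, 69 lay below wild type, with a median difference of -0.08 (-0.07 without knockout replicate 3), and 0 had an adjusted p under 0.05. At an unadjusted p under 0.05, 17 lay on the lower side (21.5%, background 6.69%) and 2 on the higher (2.53%, background 3.93%). Both of the higher ones were among the 19 maintenance genes (10.5%), of which 4 lay on the lower side (21.1%). By group, 16 of 19 maintenance genes were below wild type, 20 of 23 of RNA processing, 15 of 18 of RNA modification and 18 of 19 of aminoacylation and translation.

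Slc25a36, a carrier that brings pyrimidine nucleotides into mitochondria, read 10.57, 10.64, 10.65 and 10.50 in wild type against 10.32, 10.22 and 10.24 in knockout, a difference of -0.33 ± 0.05 (limma adjusted p = 0.095). Lonp1, a matrix protease that degrades Tfam among other proteins, differed by -0.21 ± 0.05. Trmt2b, a methyltransferase of mitochondrial RNA, read 9.43, 9.36, 9.34 and 9.27 against 9.04, 8.88 and 9.09, a difference of -0.35 ± 0.06 (limma adjusted p = 0.122). In Slc25a36 and Trmt2b knockout replicate 3 was not the lowest array. Nsun4, a ribosomal RNA methyltransferase, differed by -0.15 ± 0.06. Taco1, needed to translate the cytochrome oxidase subunit COX1, differed by -0.27 ± 0.06, and Qrsl1, a subunit of the enzyme that makes mitochondrial glutaminyl-tRNA, by -0.23 ± 0.08. Of the RNA-binding FASTK family, Tbrg4 differed by -0.18 ± 0.05 and Fastkd1 by -0.28 ± 0.10.

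Transcripts of mitochondrial DNA itself could be read for COX2 and ND3, subunits of cytochrome oxidase and complex I. COX2 read 13.87, 13.72, 13.79 and 13.81 in wild type, against 13.92, 13.87 and 13.64 in knockout arrays, a difference of 0.01 ± 0.07 (SE), and 0.09 without knockout replicate 3. ND3 read 13.35, 13.16, 13.37 and 13.31 against 13.28, 13.27 and 12.97, a difference of -0.12 ± 0.09, and -0.02 without knockout replicate 3. For both, knockout replicates 1 and 2 lay above at least 1 wild type array and replicate 3 below all of them. The second probe set of each gene gave 0.003 and -0.08.

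Related gene lists set these values in place, and the differences between lists were not tested. Of 78 mitochondrial ribosomal protein genes, 74 lay below wild type with a median of -0.10 (-0.07 without knockout replicate 3), and 24 (30.8%) did so at an unadjusted p under 0.05. Mrpl18 differed by -0.30 ± 0.05 and Mrpl4 by -0.16 ± 0.03. Of 34 complex I subunit genes, 32 lay below with a median of -0.16 (-0.14 without knockout replicate 3), 23 of them (67.6%) at an unadjusted p under 0.05, with Ndufa8 at -0.29 ± 0.04 and Ndufv1 at -0.24 ± 0.04. Of 16 cytosolic tRNA synthetases, 11 lay below, 3 of them (18.8%) at an unadjusted p under 0.05 and 4 (25%) without overlap, the same number without overlap as among the 16 mitochondrial synthetases. Their median was -0.01, and 0.009 after a further quantile normalization. Among these Mars1, for methionine, differed by -0.35 ± 0.06 and Sars, for serine, by -0.18 ± 0.06, while the mitochondrial counterparts Mars2 and Sars2 stood at 0.01 and -0.02. The 10 regulators read beside them had a median of -0.03, with a sign that turned under array weights (0.04), without knockout replicate 3 (0.004) and without wild type replicate 3 (0.002). Of these Esrra, a nuclear receptor that acts on mitochondrial genes, differed by -0.11 ± 0.04. Myc read 10.22 in knockout replicate 2 and between 7.92 and 8.43 in the other 6 arrays, a difference of 0.87 ± 0.45.

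Marker genes of other cells and fibres also differed between the arrays. Skeletal muscle fibre markers averaged between 13.73 and 13.80 in every array, so markers of the labelled tissue were present throughout. Most genes of this list are of fast fibres, but it also holds Acta1 and Des, which are not limited to them. All 11 macrophage and myeloid markers were higher in every knockout array than in every wild type array, against 3.29% of all genes. Their list means were 8.78 to 8.94 against 8.10 to 8.35. Limma gave 2 of them an adjusted p under 0.05, and 5 of all 19938 genes. Among 8 slow fibre markers, 7 lay above wild type (8.77 to 9.34 against 8.50 to 8.69). All 11 endothelial markers lay below wild type (9.23 to 9.35 against 9.51 to 9.69). Of 8 fibroblast and fibro-adipogenic markers 6 lay above wild type, with a median difference of 0.27 (10.38 to 10.76 against 10.17 to 10.55), and of 5 adipocyte markers 4 lay below, with a median of -0.13 (7.48 to 7.72 against 7.67 to 7.94). Knockout replicate 3, where the 37 genes were lowest, had the highest means of slow fibre and fibroblast markers and the lowest mean of endothelial ones. The part of these shifts in the values above was not tested, and in whole muscle fewer cells of a type and less RNA per cell cannot be told apart. For the deleted genes, Prkaa1 read 9.54, 9.48, 9.61 and 9.53 in wild type, against 9.09, 9.19 and 8.80 in knockout arrays. Prkaa2 read 12.31, 12.03, 12.28 and 12.28 against 12.04, 11.95 and 12.04, so that wild type replicate 2 lay inside the knockout range. A probe set off the deleted exons would go on reading what is left of the transcript, and the labels do not name those exons.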

How the data were processed

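Log2 expression values of 28856 probe sets on 7 arrays were taken from the deposited table. Per the labels' protocols, RNA was extracted with TRIzol and 100 ng was labelled with the Ambion WT Expression Kit. How the array signals were background-corrected, summarized and scaled, and on which genome build, was not given in the sources used here. That the values are log2 is inferred from their range of 4.41 to 14.65, and a shift common to all genes would be lost in any scaling between arrays. Array medians lay between 7.501 and 7.584. Probe sets were named through GEO's platform annotation and gene identifiers of the RefSeq table for GRCm38.p6. Of them, 21789 had 1 symbol and were tested (21698 matched, 0 symbols updated), and 1621 with several symbols and 5446 unnamed here were left out. The number of unused columns was 0.

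Knockout minus wild type was fitted with limma 3.58.1 (lmFit, eBayes) in R 4.3.3 with no covariate, over all tested probe sets. The fit was also run on simulated data with independent noise. Of simulated differences of 0.5 and 1 it recovered 86.2% and 98.4%, and 45 of 968 calls were false. Both sizes exceed every member difference, so recovery of differences as small as theirs was not tested. Values after ± are moderated standard errors unless marked SD. Lists are described by counts and medians. The members and lists were chosen with earlier results of these data known. By rule, values in every array are given for members with an adjusted p under 0.05, members without overlap, the 2 of smallest p per role, and the highest and lowest mean level, and the 2 genes of smallest p are named in each other list. Array values of other members (Tfam, Tfb1m, Rars2, Wars2) and of other genes were chosen for print after they were seen. The 7 arrays were taken as 1 per mouse, from the number of mice in the series' design. Alternatives left out each array in turn, added a replicate block, centred arrays on their medians, normalized them by quantiles, weighted them, dropped dim probe sets, used a trended robust prior, averaged a gene's probe sets, tested all probe sets, or called at an adjusted p under 0.10. Medians of the other lists under these alternatives were added after seeing the data. The highest and lowest mean levels only chose which members to print, since probe sets of different genes are not on 1 scale.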

Additional observations from a re-analysis of the deposited data

Results flagged for a closer look

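In 36 members the 4 wild type arrays were checked for 1 array far from the other 3, and 6 were flagged, where chance flags about 1 in 20. The low ones were Polg in wild type replicate 1, at 8.729 against 8.779 to 8.785, Tfb1m in replicate 2, at 9.412 against 9.589 to 9.614, and Mto1 in replicate 2, at 9.263 against 9.362 in the other 3. The high ones were Trmu in replicate 2, at 7.665 against 7.538 to 7.554, Mtfmt in replicate 1, at 8.223 against 8.157 in the other 3, and Pars2 in replicate 1, at 7.365 against 7.201 to 7.207. In Mto1 and Mtfmt the remaining 3 arrays held identical values, so any departure is flagged there. In Polg, Trmu and Pars2 the remaining arrays included an identical pair. The chance rate assumes values without ties, so it is no fair measure for these genes. Without wild type replicate 1 the difference of Polg stayed above 0 (0.05 to 0.08 over all fits that left out an array).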

How the results depend on the processing

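The count of members with an adjusted p under 0.05 was 0 in every alternative run, and 0 under 0.10 with all arrays. The smallest adjusted p of a member in any limma fit was 0.0901, for Hars2 without knockout replicate 1 (0.0901 to 0.676 over its alternatives). When each array was left out in turn, the count lower at an unadjusted p under 0.05 ran from 5 to 12 and the count higher from 0 to 1, the count of members without overlap from 9 to 14 lower and from 1 to 3 higher (fewer arrays make overlap less likely), and the median difference from -0.112 to -0.0383. With array weights the median was -0.051. With a replicate block, in which wild type replicate 4 has no partner and so adds nothing, the lower count at an unadjusted p under 0.05 was 5. Same-numbered arrays deviated together with r of 0.3, 0.154 and -0.197, so the numbers were not taken as pairs. Polg overlapped under median centring and quantile normalization, leaving 0 members without overlap on the higher side. Of the 9 lower ones, Gfm2 overlapped under median centring, and Gfm2, Aars2 and Polrmt under quantile normalization. Mtfmt separated under median centring, and Slirp, Hars2, Lars2 and Mtif2 under quantile normalization. Of 37 members, 25 kept their sign in all 15 fits and 12 did not. Polg2 turned to -0.019 under array weights, -0.0033 under median centring and -0.00050 under quantile normalization, Mto1 to -0.0028 under median centring and Vars2 to -0.034 under array weights. With an array left out, ranges that crossed 0 were -0.027 to 0.093 for Iars2, -0.020 to 0.031 for Mars2, -0.025 to 0.058 for Mto1, -0.074 to 0.028 for Pars2, -0.016 to 0.027 for Polg2, -0.045 to 0.0073 for Tars2, -0.22 to 0.041 for Tfam, -0.061 to 0.18 for Tfb1m, -0.037 to 0.0053 for Trmu, -0.055 to 0.011 for Tsfm, -0.046 to 0.078 for Vars2 and -0.14 to 0.0063 for Wars2.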
